A study of Mus musculus with 3 samples.

Results

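Apoe and 8 other genes that move cholesterol and fatty acids into, within and out of cells were followed through the myeloid cells of the mouse hippocampus. The genes were taken by symbol, and all 9 were found among the 31053 genes listed for each run: Apoe, Apoc1, Lpl, Abca1, Abcg1, Ch25h, Plin2, Fabp5 and Soat1. The cells came from Cx3cr1CreERT2/+, Rosa26tdTomato/+, NestinTK-eGFP/+ mice, in which tamoxifen (100 mg/kg on 4 days) switches on tdTomato in cells that express Cx3cr1, which include microglia and other macrophages. Both hippocampi were dissected after perfusion with PBS, myelin was removed on magnetic columns, and tdTomato-positive cells were sorted and sequenced in 3 droplet runs of a single group. The series names 12 animals, 6 male and 6 female, and does not say which animals went into which run. No untreated, wild-type or lesioned group was part of it, so each comparison lies between populations of cells within the runs (n = 3 runs). A p-value rests on a spread between runs, which may be technical and which the test partly shares over genes. It is therefore not a measure of the spread of that gene alone, and a very small p is more than 3 runs could give by themselves.

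Apolipoprotein E is the main carrier of cholesterol between cells of the brain, where astrocytes are its best known source and activated microglia a second one. Cholesterol that a cell cannot break down is either esterified and stored in droplets or handed to apolipoproteins outside the cell by ABC transporters. Oxidised forms of cholesterol activate the LXR nuclear receptors, which raise transcription of Apoe, Abca1, Abcg1 and other genes of the efflux route. In microglia, Apoe and Lpl are known as genes of the disease-associated state (DAM), described around amyloid plaques and in ageing, development and demyelination.

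Among the carriers, Apoe lies on chromosome 7 from 19696109 to 19699188 on the minus strand of GRCm38, and Apoc1, a small apolipoprotein that inhibits lipases, lies on the same strand from 19689481 to 19692660, 3448 bases from the nearer end of Apoe. Abca1 (chromosome 4, 53030787 to 53159895, minus) loads cholesterol onto lipid-poor apolipoproteins, and Abcg1 (chromosome 17, 31057675 to 31117988, plus) onto formed lipoprotein particles. Lpl (chromosome 8, 68880491 to 68907448, plus) is the secreted lipase that frees fatty acids from triglyceride-rich lipoproteins. Soat1 (chromosome 1, 156424525 to 156474331, minus) esterifies cholesterol, and Plin2 (chromosome 4, 86648386 to 86670060, minus) coats the droplets in which the esters are kept. Ch25h (chromosome 19, 34473778 to 34475164, minus) makes 25-hydroxycholesterol, and Fabp5 (chromosome 3, 10012548 to 10016607, plus) is a fatty acid binding protein.

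Promoter windows of 250 bases before the start of the transcript, from RefSeq on GRCm38.p6, were matched for 5 of the 9 genes. Apoe had 3 such windows, of which 1 was used. The RefSeq start used for Ch25h lies 16 bases inside the gene span given above, and its distances are counted from that start. Those of Apoe, Abca1 and Ch25h are shown because the comparisons below turn on the LXR-driven genes Apoe and Abca1 and Ch25h makes an oxysterol; each reads 5′ to 3′ on the gene's own strand, and capitals mark matches to the motifs searched.
Apoe, chr7:19699189-19699438, minus strand: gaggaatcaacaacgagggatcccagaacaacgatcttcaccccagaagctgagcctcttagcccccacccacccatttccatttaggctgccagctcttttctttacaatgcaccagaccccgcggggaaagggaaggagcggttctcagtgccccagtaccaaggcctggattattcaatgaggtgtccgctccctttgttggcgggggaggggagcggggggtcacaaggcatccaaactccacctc
Abca1, chr4:53159896-53160145, minus strand: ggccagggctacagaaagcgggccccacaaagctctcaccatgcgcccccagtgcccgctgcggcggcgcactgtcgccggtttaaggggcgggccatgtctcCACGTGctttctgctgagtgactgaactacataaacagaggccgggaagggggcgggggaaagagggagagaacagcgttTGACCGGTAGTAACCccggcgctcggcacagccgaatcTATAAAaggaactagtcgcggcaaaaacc
Ch25h, chr19:34475149-34475398, minus strand: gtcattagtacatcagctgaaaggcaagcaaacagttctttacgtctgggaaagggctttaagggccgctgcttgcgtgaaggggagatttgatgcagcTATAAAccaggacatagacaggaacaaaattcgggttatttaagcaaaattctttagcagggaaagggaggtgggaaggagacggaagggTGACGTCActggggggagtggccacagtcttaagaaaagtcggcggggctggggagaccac
In the Abca1 window, capitals mark a match on the opposite strand to GGTTA and CGGTCA with 4 bases between, 67 to 53 bases before the start, a CACGTG 147 to 142 bases before it and a TATAAA 29 to 24 bases before it. The letters of the first were chosen with the Abca1 sequence known, and 4 of 32851 promoter windows of this length (0.0122%) hold them on either strand, while 6.02% hold CACGTG and 12.4% hold TATAAA. The Ch25h window holds TGACGTCA 61 to 54 bases before the start, as do 1.55% of windows, and TATAAA 151 to 146 bases before it. Direct repeats of GGTCA with 4 bases between (0.0457% of windows) and of AGGTCA with 1 base between (0.0335%) were searched on both strands too and were found in none of the 5 windows. The window shown for Apoe and those of Plin2 and Soat1 held none of the 6 motifs, which says only that these letters are not in those bases.

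Cells were kept from 1000 UMIs (counted RNA molecules, told apart by their barcodes) and 500 genes upwards if mitochondrial genes made up no more than 10%, which left 6993, 6720 and 6078 cells in runs 1, 2 and 3, with a median of 4425, 3438 and 3696 UMIs. At least 3 of 8 microglia markers were found in 99.4% to 99.6% of them, and the runs shared 7 to 10 cell barcodes in pairs. Populations were gated on markers that include none of the 9 genes, each cell going to the first gate it met, and microglia that met no gate served as the reference (18822 cells). Both Xist and a Y-linked gene, as a doublet of a female and a male cell would show, were found in 26 of 81 border macrophage-gated cells in run 1, against 1 of 35 and 3 of 54 in runs 2 and 3. Levels are CPM, the usual scaling of a gene's UMIs to the total of the summed population, and they are compared between populations and never between genes, since UMIs were not set per length.

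Apoe was highest in border macrophage-gated cells, the macrophages of meninges and vessels, and far lower in reference microglia, with which some of the other populations overlapped. Reference microglia held 662, 859 and 727 CPM in runs 1, 2 and 3 (749 ± 100, SD, n = 3 runs, here and below). Border macrophage-gated cells, 170 cells with at least 3 of Mrc1, Pf4, F13a1, Cd163, Lyve1, Cbr2 and Ms4a7, held 25358, 51585 and 45200 CPM, and 37148, 52069 and 45845 CPM without the cells that hold both sex-linked transcripts. The lowest of these runs lay above the highest run of each other population, and run 1 lay below the other runs.

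MHC class II-gated cells (57 cells with antigen presentation genes) came next with 12216, 22730 and 14143 CPM. DAM-gated cells without chemokines (64 cells with at least 3 of Spp1, Itgax, Cst7, Gpnmb, Lgals3, Csf1 and Igf1) held 6151, 5123 and 4675 CPM. Every MHC class II run lay above each DAM run. The 9 DAM-gated cells that also met the chemokine gate held 6013 ± 1228 CPM, and the Emp3-gated cells, which share Emp3, Fxyd5 and Tnfsf13b, at 5160 ± 2955 CPM. Those 3 groups did not differ beyond their spread, and choroid plexus-gated cells overlapped them at 3746 ± 1662 CPM. The choroid plexus gate uses genes of the epithelium that makes cerebrospinal fluid, but its cells looked mixed. Microglia markers summed to 362 to 13285 CPM in them, and 51.9%, 33.3% and 0% of them by run held at least 3 such markers.

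Chemokine-gated cells, which held Ccl3 and Ccl4 without the DAM gate, spread from 600 CPM in run 1 to 3710 in run 2, with 1983 in run 3. Interferon-gated cells were the narrowest, at 1376, 1344 and 1449 CPM, and lay above all 3 reference runs. Cells carrying astrocyte transcripts held 1145 ± 422 CPM and overlapped the reference, as did the 16 monocyte-gated cells at 863 ± 1114 and the 38 immediate early-gated cells at 793 ± 588. Cycling-gated cells held 547, 510 and 174 CPM, below every reference run. Border macrophage-gated cells were 170 of the 19791 cells and carried 35.4% of all Apoe UMIs on average over runs, against 51.4% in the 18822 reference cells.

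**Figure D1:**
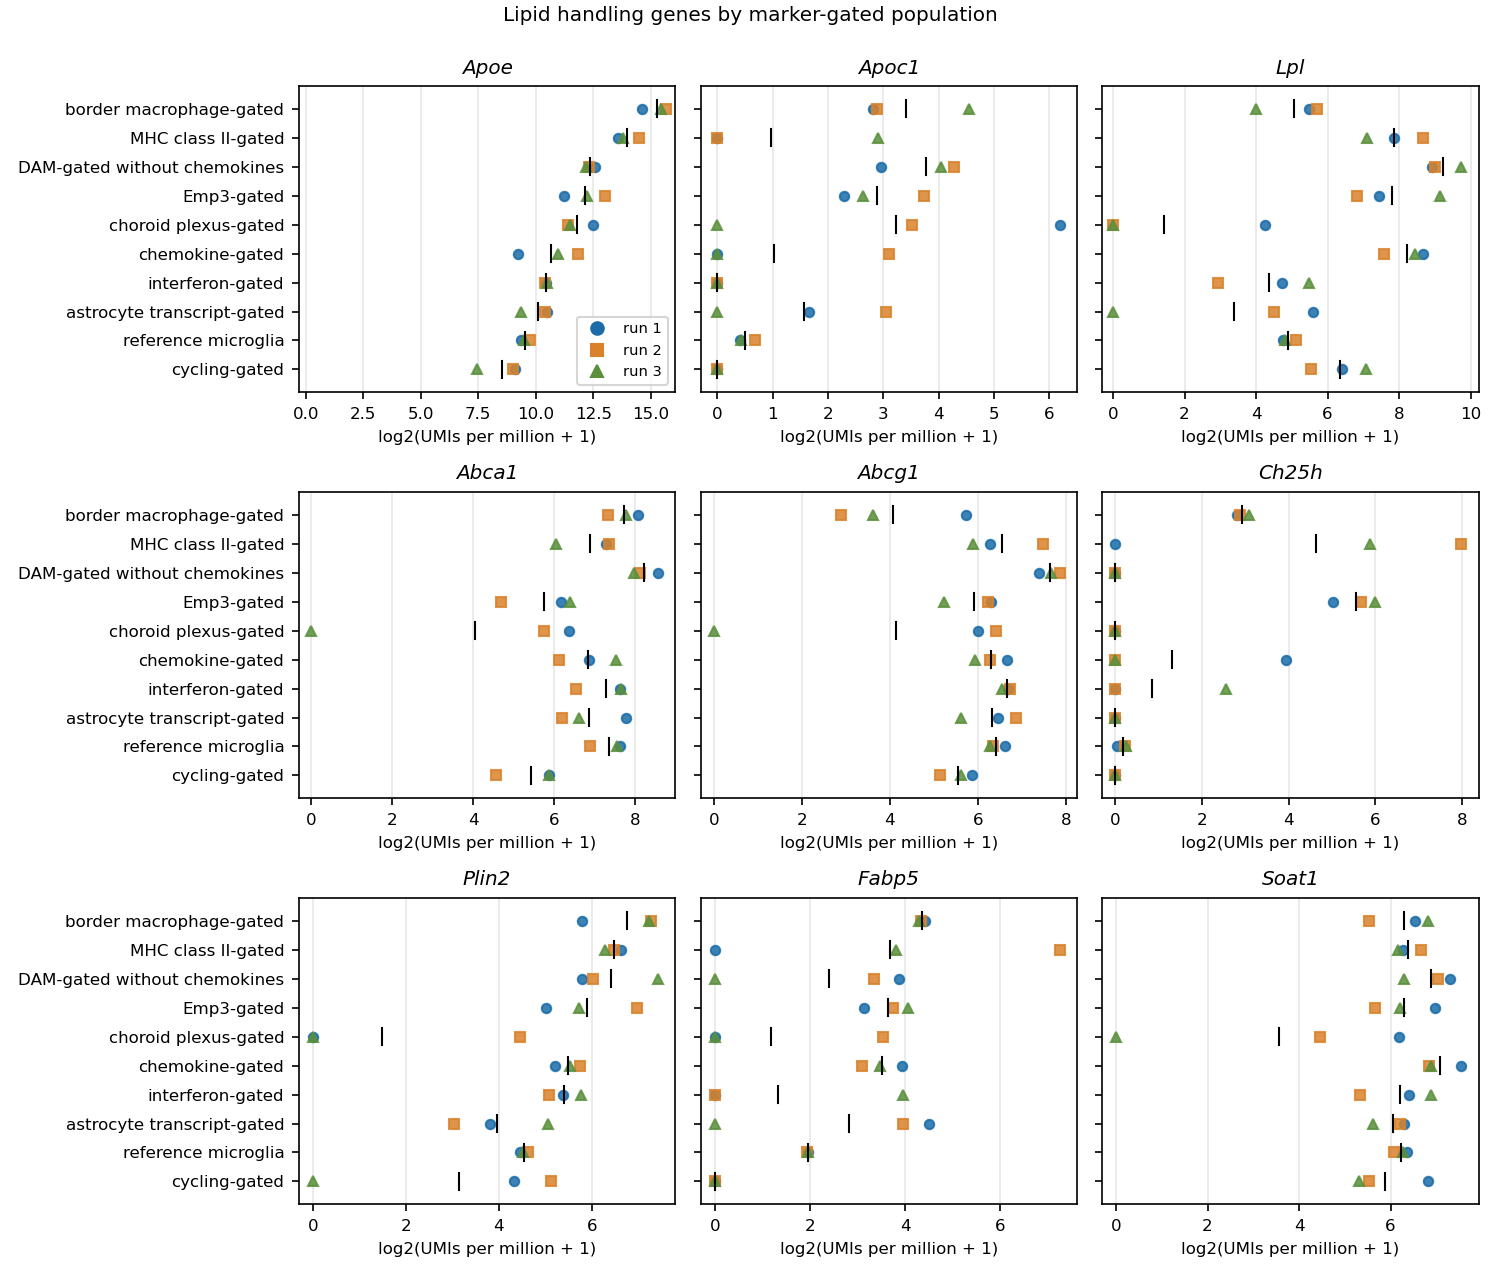
Level of each of the 9 genes in 10 populations, as log2 of CPM plus 1; each point is a run and the black bar is the mean of the 3 runs on that scale. Apoe runs from 174 CPM in a run of cycling-gated cells to 51585 CPM in a run of border macrophage-gated cells.

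Within reference microglia, most Apoe UMIs lay in a small share of the cells, although a UMI was found in many. To compare cells at equal depth, each was thinned at random to 2000 UMIs, which left out shallower cells. At that depth no Apoe UMI was found in 62.5%, 58.3% and 59.7% of reference cells in runs 1, 2 and 3, and 12 or more were found in 1.63%, 2.24% and 1.71%. The 10% of cells with the most held 68.9%, 66.5% and 65.1% of the Apoe UMIs, and the variance over cells was 15.5, 15.8 and 10.3 times the mean, where counting alone would give equality. The single highest reference cell held 174, 108 and 85 of its 2000 UMIs as Apoe.

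Free RNA from lysed cells can place UMIs in cells that do not express a gene, and T or NK-gated cells, which should lack Apoe, were looked at as a possible measure of it. Apoe was found in 4 of these 13 cells, with 12 UMIs in all, at 136, 618 and 73.6 CPM and a median depth of 7376, 2233 and 4117 UMIs. Microglia markers summed to 3190 to 14220 CPM in the 13 cells, and at least 3 such markers were found in 50%, 33.3% and 25% of them by run. Both sex-linked transcripts were found in 2 of the 13, so these cells are not a clean measure of free RNA. Unthinned, a UMI of Apoe was found in 50.1% to 52.8% of reference cells. A share from 13 cells is too coarse to be set against these, so a single Apoe UMI in a reference cell is not read as expression.

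The gated populations differed from the reference in how many cells carried Apoe as well as in its sum. Of border macrophage-gated cells, 95.1%, 100% and 98.1% held 12 or more UMIs at 2000, with a median of 56, 96 and 96. MHC class II-gated cells were mixed, with 12 or more UMIs in 35.3%, 69.2% and 54.2% and none in 29.4%, 7.69% and 29.2%. In DAM-gated cells without chemokines, 27.3%, 38.1% and 30.0% held 12 or more, and 7 of 33, 1 of 21 and 2 of 10 held none. Cycling-gated cells held none in 66.7%, 76.9% and 81.3%, and no cycling-gated cell reached 12. Interferon-gated cells held none in 55.9%, 51.5% and 52.4%, each below the reference value of the same run.

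**Figure D2:**
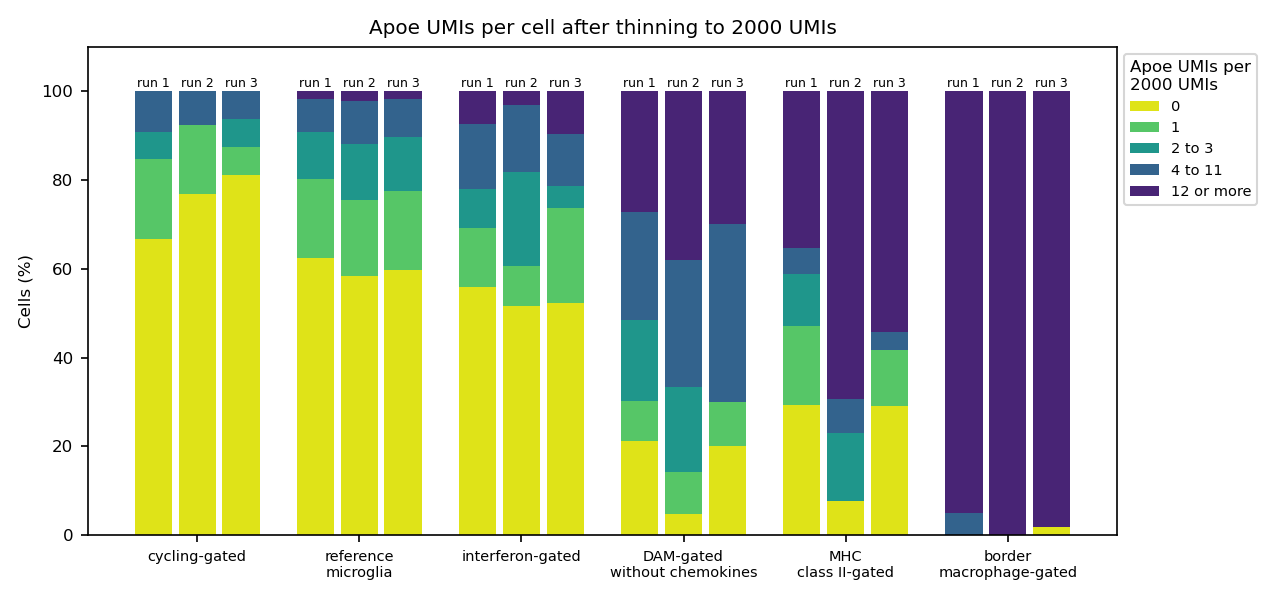
Share of cells (percent, stacked to 100) by their number of Apoe UMIs after thinning to 2000 UMIs, for each population and run. Nearly all border macrophage-gated cells hold 12 or more (95.1% to 100%), while most reference microglia hold none (58.3% to 62.5%).

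The number of different lipid handling genes found in a thinned cell was highest in DAM-gated cells without chemokines, at 2.42 ± 0.07 of 9, where 48.8% of cells held 3 or more. Border macrophage-gated cells held 1.81, MHC class II-gated cells 1.71 and chemokine-gated cells 1.44. Reference microglia held 1.04 ± 0.06, with 6.25% of cells at 3 or more, and cycling-gated cells 0.73. Border macrophage-gated cells thus held the most Apoe but fewer of the other genes than DAM-gated cells.

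Reference microglia that carried more Apoe also carried more Lpl, the lipase, and those with the most Apoe carried more Plin2, while Abca1 moved little. Over bins of 0, 1, 2 to 3, 4 to 11 and 12 or more Apoe UMIs (10981, 3214, 2123, 1572 and 339 cells), Lpl stood at 21.4, 26.1, 29.5, 42.0 and 98.7 CPM, and in the highest bin at 84.9, 128 and 83.3 CPM in runs 1, 2 and 3. Plin2 stood at 21.2, 23.7, 24.8 and 23.4 CPM in the first 4 bins and at 52.7 ± 5.16 CPM in the highest, with runs at 56.6, 54.7 and 46.9. Plin2 thus stood apart in the highest bin, while the mean of Lpl increased from bin to bin. The mean of Abca1 moved from 158 to 172 CPM with a highest value of 184, that of Abcg1 from 79.6 to 99.7 and that of Soat1 from 74.0 to 88.0. Within runs, Abca1 and Abcg1 were lower in the highest bin than in the lowest in run 1 and higher in runs 2 and 3. Soat1 was higher there in each run. Fabp5 counted 45, 20, 24, 8 and 7 UMIs over the bins and was too sparse for an order.

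Other markers moved with the Apoe bins in these cells, which had met no gate. DAM markers summed to 15.6, 17.1, 38.7, 43.9 and 118 CPM and microglia markers to 31399, 30457, 29677, 28101 and 23868 CPM over the 5 bins. Border macrophage markers summed to 5.18, 4.74, 4.61 and 5.19 CPM in the first 4 bins and to 29.4 CPM, between 0 and 51.9, in the highest. Astrocyte markers summed to 277, 287, 282, 297 and 230 CPM, so they were lowest where Apoe was highest. What part the DAM and border markers have in the rise of Lpl and Plin2 was not tested.

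**Figure D3:**
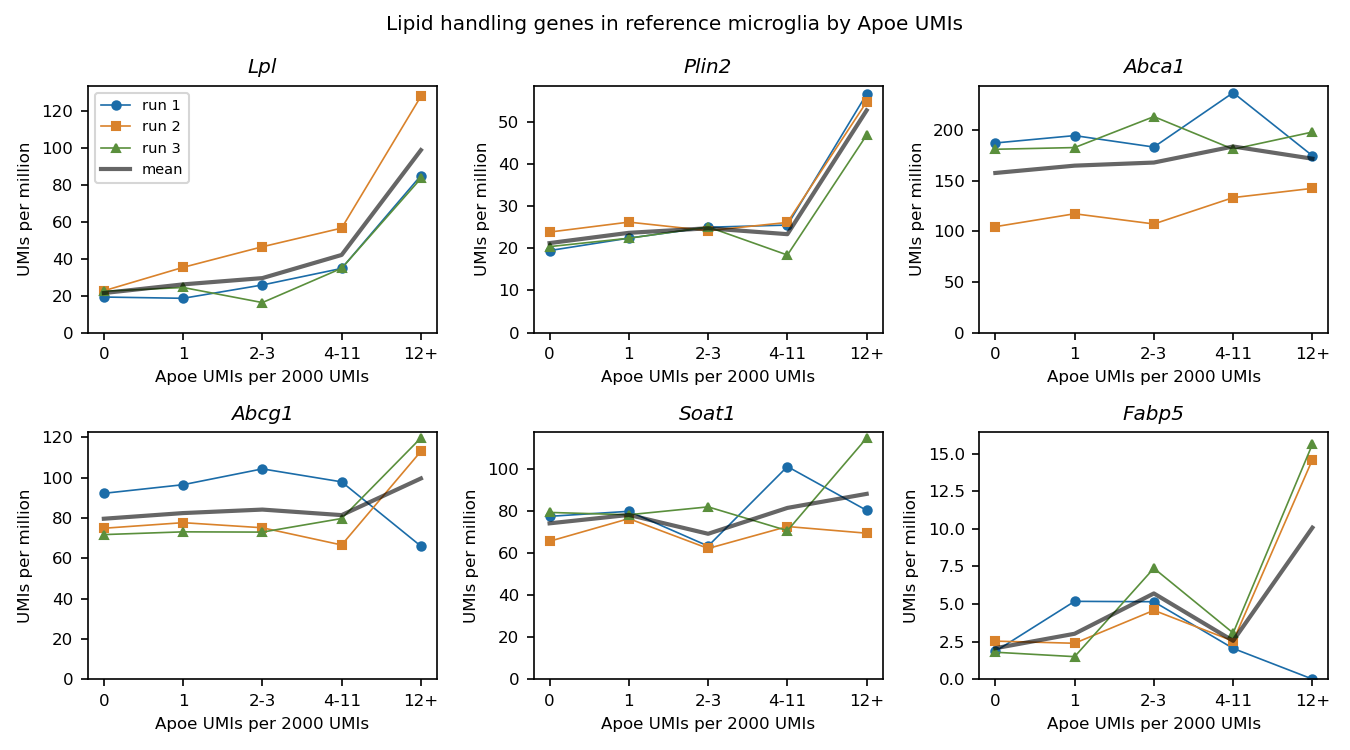
Levels of 6 genes (CPM) in reference microglia, thinned to 2000 UMIs, by the number of Apoe UMIs in the cell; thin lines with points are runs and the thick line is their mean. The mean of Lpl climbs from 21.4 to 98.7 CPM, Plin2 leaves its level only in the bin of 12 or more (52.7 CPM), and Abca1 stays between 158 and 184 CPM.

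Cells with at least 4 Apoe UMIs (596, 730 and 585 in runs 1, 2 and 3) were tested against cells with none (4059, 3564 and 3358) by edgeR's quasi-likelihood test blocked by run, with p adjusted by Benjamini-Hochberg; Apoe itself was left out. Of 6 genes tested, 3 were higher and none lower, where 6.85% of all 10381 genes passed, 4.72% higher and 2.13% lower; Apoc1 and Ch25h had too few UMIs to be tested. The log2 difference was 1.41 ± 0.14 for Lpl (SE, edgeR adjusted p = 1.17e-21), 0.54 ± 0.17 for Plin2 (adjusted p = 0.0218) and 0.33 ± 0.06 for Abca1 (adjusted p = 1.73e-05). The ratio of Lpl within runs was 1.15, 1.59 and 0.91 on the log2 scale, and its small p rests on a spread shared over genes. The ratio of Abca1 within runs was 0.28, 0.37 and 0.03 on the log2 scale, so run 3 showed nearly none. Soat1 (0.27 ± 0.09, edgeR adjusted p = 0.0642), Abcg1 (0.19 ± 0.09, adjusted p = 0.256) and Fabp5 (1.00 ± 0.52, adjusted p = 0.327) did not pass. With TMM scaling the fitted differences of this test lie above plain CPM ratios, which weighs most for the small ones of Abca1, Soat1 and Abcg1. The plain ratios within runs were 0.33, 0.14 and -0.02 for Soat1 and 0.01, 0.02 and 0.27 for Abcg1. The cut at 4 UMIs is a range and not a cell type, with 222, 310 and 245 cells at 3 UMIs and 143, 176 and 144 at 4. These calls rest on the pairing of cells within runs: without the block 4 genes passed over all, and of the lipid handling genes none did (Lpl edgeR adjusted p = 0.105). Without run 2, Plin2 and Abca1 were lost (edgeR adjusted p = 0.209 and 0.0520) and 410 genes passed over all in place of 711, and without run 1 Plin2 was lost (adjusted p = 0.326). Plin2 was also lost with no filter on low counts (edgeR adjusted p = 0.0580) and without cells holding an astrocyte marker (0.462).

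Some genes of the wider lipid lists were higher too. Of lysosomal genes of lipid handling, 5 of 13 tested were higher in the cells with at least 4 Apoe UMIs, among them Npc2, which passes cholesterol out of the lysosome, at 836 against 614 CPM (log2 0.55 ± 0.03). Of other LXR targets, 2 of 7 were higher, with Smpdl3a, a phosphodiesterase, at 36.7 against 26.4 CPM (log2 0.58 ± 0.15). None of 16 genes of cholesterol synthesis and none of 11 of fatty acid uptake and oxidation passed in edgeR or DESeq2, with 0 and 1 of them at an unadjusted p under 0.05 in edgeR, and 1 of 15 of lipid droplet turnover was lower. The median log2 difference was 0.02 over the synthesis genes and -0.01 over all genes tested.

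Across single reference cells the genes followed Apoe only weakly. Spearman's rho with Apoe, in 6495, 6108 and 5626 cells thinned to 2000 UMIs, was 0.035, 0.083 and 0.033 for Lpl, a mean of 0.050. The means of the others ran from 0.0026 for Soat1 to 0.037 for Apoc1, with 0.024 for Abca1, 0.010 for Abcg1 and 0.019 for Plin2. The median over 4794 genes found in at least 5% of cells was -0.0090, and 10 genes exceeded 0.1. Cells of a run share a library and its free RNA, Apoe itself correlated with depth before thinning at 0.103, 0.109 and 0.046, and in counts this sparse such values are a description and no finding.

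The genes whose pattern was most like that of Apoe were Lyz2, the gene of lysozyme, with a mean rho of 0.204, Cd63, a tetraspanin of late endosomes (0.181), Ctss, the lysosomal protease cathepsin S (0.160), Eef1a1, a translation factor (0.136), and Fth1, the ferritin heavy chain (0.135). At the other end stood the microglia markers P2ry12 (-0.142), Tmem119 (-0.120) and P2ry13 (-0.110). Over all kept cells of at least 2000 UMIs the 5 highest were Lyz2 (0.246), Cd63 (0.203), Fth1 (0.169), Ctsb (0.158) and Eef1a1 (0.142), and P2ry12 was again the lowest (-0.175). Lpl reached 0.066 there and Apoc1 0.045.

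In the comparisons of gated populations with reference microglia, which share the reference cells, 6 of the 9 genes passed the filter on low counts and were tested among 4307 genes: Apoe, Lpl, Abca1, Abcg1, Plin2 and Soat1. The filter kept a gene that reached its level in 3 of the 27 sums of the fit. A gene low in the reference could thus enter only through gated populations where it is high. Lpl and Plin2 entered that way, as did Pltp, Cd36, Myo5a, Scd2, Acadl, Acsl5 and others of the lists, so counts of genes higher lean that way. TMM scaling, used in the test, lies above plain CPM ratios by a median of 0.13, 0.11, 0.24 and 0.34 on the log2 scale in DAM-gated, chemokine-gated, border macrophage-gated and MHC class II-gated cells and by 0.03 in interferon-gated and cycling-gated cells, and fitted differences are relative to that.

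DAM-gated cells without chemokines were higher in all 6 tested genes, from the lipase through the carrier and both cholesterol exporters to the esterifying enzyme and the droplet coat. Of all genes, 14.5% passed, 8.29% higher and 6.22% lower. Lpl stood at 481, 517 and 854 CPM in runs 1, 2 and 3 against 26.2, 34.0 and 27.2 in reference microglia, a log2 difference of 4.41 ± 0.32 (edgeR adjusted p = 6.69e-13). The Apoe levels given above differ by 2.97 ± 0.37 on the log2 scale (edgeR adjusted p = 2.53e-07). For both genes every DAM run lay far above every reference run.

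Both cholesterol exporters were higher too. Abcg1 stood at 167, 231 and 202 CPM against 96.6, 80.0 and 76.8 (log2 1.20 ± 0.24, edgeR adjusted p = 6.01e-04). Abca1 stood at 376, 277 and 249 CPM against 196, 117 and 187 (log2 1.00 ± 0.21, edgeR adjusted p = 0.00102). The runs of the groups did not overlap for either gene.

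The storage genes were higher with less support. Plin2 stood at 54.6, 64.6 and 171 CPM, from 16, 7 and 11 UMIs, against 21.0, 23.9 and 22.1 (log2 1.95 ± 0.40, edgeR adjusted p = 8.37e-04), with run 3 highest. Soat1 stood at 157, 129 and 77.7 CPM against 80.7, 66.0 and 75.7 (log2 0.90 ± 0.26, edgeR adjusted p = 0.0135). Its runs overlapped, since run 3 of the DAM-gated cells lay below run 1 of the reference, and the call was lost without run 1 (adjusted p = 0.277) and without run 2 (adjusted p = 0.125), and with no filter on low counts (0.0732). The median log2 difference of the 6 genes was 1.58, against -0.03 over all genes tested, but Lpl and Plin2 had entered the test only through gated populations where they are high. The DAM-gated cells were deeper, with a median of 7166, 4642 and 6161 UMIs against 4391, 3425 and 3677, and their astrocyte markers summed to 186 to 208 CPM against 231 to 367. Border macrophage markers summed to 0 to 20.5 CPM in them, with all 7 at 0 in runs 2 and 3. Without run 2, 213 genes passed over all in place of 625, and 365 did without run 1.

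The wider lipid programme moved in parts in DAM-gated cells. Of lysosomal lipid genes, 4 of 11 tested were higher, among them Lipa, the lysosomal lipase of cholesteryl esters, at 209 against 122 CPM (log2 0.98 ± 0.21) and Npc2 at 1235 against 670 (0.97 ± 0.19). Pla2g15, a lysosomal phospholipase, was lower at 186 against 311 CPM (-0.68 ± 0.20). Of other LXR targets, 2 of 6 were higher, Myo5a at 31.1 against 5.79 CPM and Scd2, a fatty acid desaturase, at 93.9 against 34.5. Both had entered the test only through gated populations where they are high. Lrpap1, a chaperone of lipoprotein receptors, was the only higher one of 4 receptor genes, at 282 against 138 CPM. Tomm40, a nuclear gene next to Apoe whose protein is mitochondrial, was 1 of 2 neighbour and apolipoprotein genes tested and was higher at 115 against 71.6 CPM. None of 6 droplet genes, 6 fatty acid genes and 2 cholesterol synthesis genes passed edgeR's test, with 1, 3 and 0 at an unadjusted p under 0.05, and DESeq2 called 1 of the fatty acid genes.

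Chemokine-gated cells, which lack the DAM gate, were higher in 3 of the 6 genes, Lpl, Apoe and Soat1, where 9.89% of all genes passed, 6.13% higher and 3.76% lower. Lpl stood at 407, 190 and 348 CPM (log2 3.51 ± 0.34, edgeR adjusted p = 1.14e-09), and every run lay above every reference run. Apoe differed by 1.44 ± 0.35 on the log2 scale (edgeR adjusted p = 0.00562), but its ratios within runs were -0.14, 2.11 and 1.45, so the runs did not share a direction, and without run 2 the difference was 0.97 with an adjusted p of 0.339. Soat1 stood at 186, 114 and 116 CPM (log2 0.96 ± 0.25, edgeR adjusted p = 0.00839), above every reference run. It was lost without run 1 (edgeR adjusted p = 0.155), without run 2 (0.0591), without cells holding an astrocyte marker (0.351) and with one marker more in each gate (0.0815).

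The exporters and Plin2 did not pass in chemokine-gated cells. Plin2 differed by 1.04 ± 0.46 on the log2 scale (edgeR adjusted p = 0.162), Abca1 by -0.31 ± 0.25 (adjusted p = 0.493) and Abcg1 by -0.03 ± 0.30 (adjusted p = 0.974). Whether DAM-gated and chemokine-gated cells differ from each other in these genes was not tested. DAM markers summed to 247 to 493 CPM in chemokine-gated cells, against 24.9 to 28.8 in the reference and 1028 to 1228 in DAM-gated cells, and immediate early genes to 1768 to 3542 CPM against 226 to 1234 in the reference. In the chemokine-gated cells with under 2 DAM markers (23, 22 and 42), Lpl stood at 40.2, 53.6 and 128 CPM, from 4, 5 and 21 UMIs. These values lay below those of the whole gate in each run. Cells that met the chemokine gate and held at least 2 DAM markers (8, 13 and 9) held 1293, 672 and 1253 CPM of Lpl. With under 2 markers, Apoe stood at 622, 3026 and 1599 CPM and Soat1 at 151, 75.1 and 109. What part DAM markers or immediate early genes have in the levels of Lpl, Apoe and Soat1 was not tested. Of the genes on the lipid lists, Npc2 was the only one to pass edgeR's test (1 of 11 lysosomal genes, 952 against 670 CPM, log2 0.58 ± 0.19). Without runs 1 and 2 in turn, 222 and 180 genes passed over all, in place of 426.

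MHC class II-gated cells were higher in Apoe, Lpl and Plin2, where 19.9% of all genes passed, 13.2% higher and 6.64% lower. Apoe differed by 4.70 ± 0.39 on the log2 scale (edgeR adjusted p = 4.71e-12). Lpl stood at 230, 403 and 135 CPM (log2 3.27 ± 0.43, edgeR adjusted p = 2.35e-07) and Plin2 at 98.5, 88.1 and 77.4 CPM (log2 2.21 ± 0.44, edgeR adjusted p = 2.30e-04), with every run of both genes above the reference. Abcg1 (0.47 ± 0.33, edgeR adjusted p = 0.383), Soat1 (0.39 ± 0.34, adjusted p = 0.504) and Abca1 (-0.26 ± 0.29, adjusted p = 0.616) did not pass.

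The MHC class II gate took in cells with transcripts of border macrophages. Of the 7 border markers, 3, 4 and 5 were found in runs 1, 2 and 3, summing to 361 to 1208 CPM against 3.34 to 6.85 in the reference, and Lyve1 and Cbr2 were at 0 in each run. Other markers moved with the gate as well: DAM markers summed to 558 to 1333 CPM, against 24.9 to 28.8 in the reference and 1028 to 1228 in DAM-gated cells, monocyte markers to 164 to 516 against 3.38 to 4.97, interferon genes to 665 to 2227 against 48.2 to 55.7 and microglia markers to 8652 to 16507 against 27647 to 34695. What part any of them has in the levels of Apoe, Lpl and Plin2 was not tested. Apoe stood at 33970, 31969 and 18149 CPM in the 6, 10 and 15 cells with a border marker and at 2116, 8477 and 6373 CPM in the 11, 6 and 9 cells without one. Lpl stood at 0, 207 and 166 CPM in the former and at 337, 704 and 75.9 CPM in the latter. Apoe was thus higher in the cells with border markers in each run, while Lpl was lower there in runs 1 and 2 and higher in run 3. Both kinds of cell lay above the reference in Apoe in every run, and the cells are too few for a test. Of the lists, Pltp, the phospholipid transfer protein (67.0 against 0.64 CPM), Myo5a, Cd36, the fatty acid uptake receptor (50.2 against 0.21 CPM), Npc2 and Psap were higher, and Mylip, Mgll, Pla2g15, Sort1 and Trem2 were among those lower. The counts in all were 2 higher and 1 lower of 6 LXR targets, 3 and 2 of 11 lysosomal genes, 1 lower of 6 droplet genes, 1 higher of 6 fatty acid genes and 2 lower of 4 receptors. Without runs 2 and 3 in turn, 521 and 462 genes passed over all, in place of 855.

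Border macrophage-gated cells were higher in Apoe and Plin2 and lower in the exporter Abcg1, while the higher level of the exporter Abca1 passed with little support. Of all genes, 26.4% passed, 15.8% higher and 10.7% lower. Apoe differed by 5.97 ± 0.42 on the log2 scale (edgeR adjusted p = 1.55e-14). Plin2 stood at 54.2, 154 and 149 CPM (log2 2.40 ± 0.28, edgeR adjusted p = 8.41e-09), above the reference in every run.

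Abcg1 stood at 51.7, 6.40 and 11.2 CPM, from 43, 1 and 3 UMIs, below every reference run (log2 -1.17 ± 0.27, edgeR adjusted p = 8.28e-04). Run 1, the one with many cells holding both sex-linked transcripts, was the highest, and without that run the difference was -2.76. Without run 1 and without cells holding both transcripts it was -3.68 ± 0.66 (edgeR adjusted p = 1.53e-05). Abca1 stood at 265, 160 and 217 CPM against 196, 117 and 187 (log2 0.55 ± 0.19, edgeR adjusted p = 0.0273). Its runs overlapped those of the reference, and the call was lost in 7 of 14 alternatives: without run 2 (edgeR adjusted p = 0.140), without run 3 (0.0512), without the block (0.202), with no filter on low counts (0.117), with the stricter cell filter (0.125), on thinned cells (0.153) and in a fit of the 2 populations alone (0.126). Lpl at 43.3, 51.2 and 14.9 CPM (log2 0.57 ± 0.45, edgeR adjusted p = 0.401) and Soat1 (0.34 ± 0.21, adjusted p = 0.268) did not pass.

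Around these genes, border macrophage-gated cells were higher in Pltp at 223 against 0.64 CPM (log2 8.53 ± 0.47), in Myo5a at 129 against 5.79, in Cd36 at 85.2 against 0.21 and in Npc2 at 920 against 670. They were lower in Trem2, the lipid-sensing receptor of microglia, at 1276 against 2717 CPM, in the lipoprotein receptor Lrp1 at 183 against 344 and in Sort1 at 50.5 against 98.8. Mgll and Acsl4 of the droplet list and Tmem135, Mylip and Lpcat3 of the LXR list were lower too. The counts in all were 2 higher and 3 lower of 6 LXR targets, 3 lower of 4 receptors, 1 higher and 2 lower of 11 lysosomal genes, 2 lower of 6 droplet genes, 1 higher of 6 fatty acid genes and 1 higher of 2 synthesis genes. Microglia markers summed to 5950 to 16717 CPM in these cells against 27647 to 34695 in the reference, DAM markers to 115 to 571 against 24.9 to 28.8 and MHC class II genes to 4376 to 11195 against 13.6 to 17.4, and their part in these differences was not tested. Without runs 2 and 3 in turn, 737 and 662 genes passed over all, in place of 1138.

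**Figure D4:**
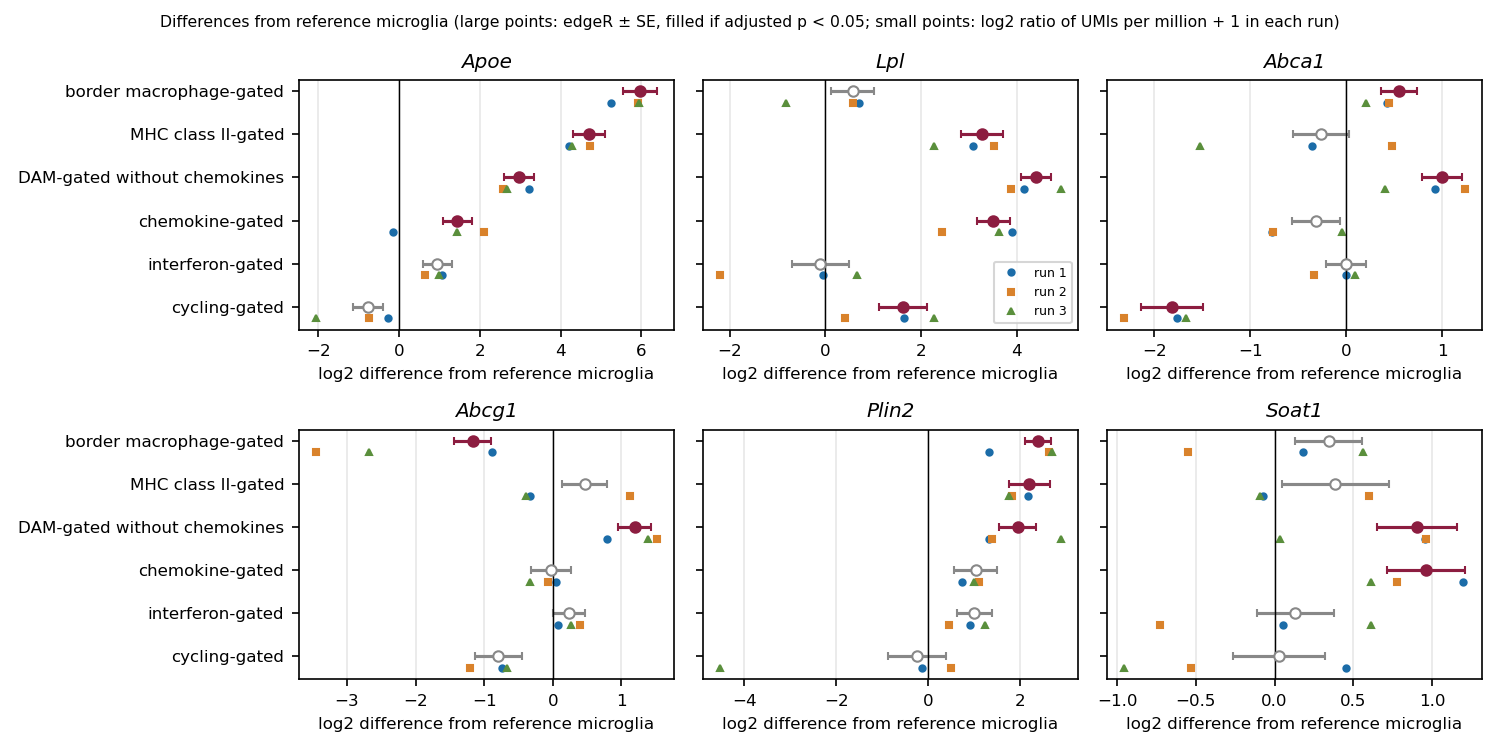
Difference of each gated population from reference microglia (log2, fitted value with its SE as a bar; small points are the ratios within each run with a pseudocount of 1 CPM) for the 6 genes tested. DAM-gated cells without chemokines lie above 0 for every gene, whereas border macrophage-gated cells reach 5.97 for Apoe and -1.17 for Abcg1.

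Interferon-gated cells, microglia with at least 4 genes of the antiviral response, had no gene of the 6 past the threshold, where 2.74% of all genes passed, 2.72% higher and 0.0232% lower. At an unadjusted p under 0.05 there were 2 of the 6 by edgeR and 2 by DESeq2, which called none either. Apoe differed by 0.95 ± 0.35 on the log2 scale (edgeR adjusted p = 0.257) and was higher in each run, by 1.06, 0.65 and 0.99. Plin2 stood at 40.7, 32.9 and 53.3 CPM, above every reference run, with a difference of 1.01 ± 0.39 (edgeR adjusted p = 0.315). The others lay between -0.10 (Lpl) and 0.23 (Abcg1). Of the lipid lists no gene passed edgeR's test, and 1 of 4 receptor genes was under an unadjusted p of 0.05. The Apoe difference passed without run 1 (0.87, edgeR adjusted p = 0.0367), with no filter on low counts (0.85, adjusted p = 3.77e-04), on thinned cells (1.32, adjusted p = 0.0174) and in a fit of these cells and the reference alone (0.90, adjusted p = 4.05e-27), where the spread is shared with no other population.

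Cycling-gated cells were lower in Abca1 and higher in Lpl, where 25.2% of all genes passed, 15.8% higher and 9.47% lower. Abca1 stood at 57.4, 22.7 and 57.9 CPM, from 15, 2 and 6 UMIs, below every reference run (log2 -1.82 ± 0.32, edgeR adjusted p = 2.97e-05). Lpl stood at 84.1, 45.3 and 135 CPM, from 22, 4 and 14 UMIs, above every reference run (log2 1.63 ± 0.51, edgeR adjusted p = 0.0158), and was lost without run 1 (adjusted p = 0.0956), without the cells that hold both sex-linked transcripts (0.0644), with one marker more in each gate (0.0903) and on thinned cells (0.126). Abcg1 differed by -0.79 ± 0.34 (edgeR adjusted p = 0.0867) and Apoe by -0.77 ± 0.38 (adjusted p = 0.140), and Apoe passed without run 1 (-1.31, adjusted p = 0.00140), without the cells that hold both sex-linked transcripts (-1.15, 0.0264), with no filter on low counts (-0.99, 2.11e-05) and in a fit of these cells and the reference alone (-0.99, 2.24e-08). Plin2 (-0.24 ± 0.63, adjusted p = 0.828) and Soat1 (0.03 ± 0.29, adjusted p = 0.967) did not pass. Acsl5, which activates fatty acids (169 against 59.5 CPM), Acadl, which oxidises them (109 against 44.5), Myo5a and Scd2 were higher, and Asah1, Mgll and Trem2 were lower. The higher genes named here are among those that the filter kept through gated populations. The counts in all were 2 higher of 6 LXR targets, 1 higher and 2 lower of 6 droplet genes, 1 higher of 6 fatty acid genes, 1 lower of 11 lysosomal genes and 1 lower of 4 receptors. Without run 1, 672 genes passed over all, in place of 1087.

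Ch25h, Apoc1 and Fabp5 were nearly absent from reference microglia and did not pass the filter on low counts in these comparisons. The ratios below are of pooled UMIs, with exact binomial intervals at 95% that cover counting error only. Ch25h had 9 UMIs in the 18822 reference cells (0.118 CPM). MHC class II-gated cells held 29 UMIs of it (89.0 CPM, 757 times the reference, 349 to 1818) in 8 of 57 cells, with 0, 20 and 9 UMIs in runs 1, 2 and 3, so run 1 showed none. Emp3-gated cells held 24 UMIs in 5 of 80 cells (386 times, 173 to 943) and border macrophage-gated cells 8 in 6 of 170 (54.2 times, 18.2 to 158). DAM-gated cells without chemokines held none, which allows up to 6.44 CPM.

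Apoc1 had 32 UMIs in the reference (0.418 CPM). It was at 12 UMIs in 11 of 170 border macrophage-gated cells (22.9 times the reference, 10.7 to 45.6), at 5 in 5 of 64 DAM-gated cells without chemokines (25.7 times, 7.81 to 66.4) and at 9 in 4 of 57 choroid plexus-gated cells (102 times, 42.7 to 218). MHC class II-gated cells, which came next to border macrophage-gated cells in Apoe, held 1 UMI of it, and DAM-gated cells with chemokines held none. Fabp5 had 219 UMIs in the reference (2.86 CPM), 25 in 20 border macrophage-gated cells (6.96 times, 4.41 to 10.6) and 12 in 11 cells with astrocyte transcripts (6.33 times, 3.22 to 11.3). In MHC class II-gated cells its 14 UMIs came from 3 cells, 12 of them from 1 cell of run 2, and the 18 UMIs in DAM-gated cells with chemokines came from 2 of 9 cells. Fabp5 also has a processed pseudogene, Fabp5l2, with which the counting may share reads, so its values are uncertain. The 9 DAM-gated cells with chemokines, at 2, 4 and 3 per run, were too few for a test.

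Since the runs hold animals of both sexes, reference microglia were divided by sex-linked transcripts into cells with Y-linked UMIs and no Xist (2233, 1298 and 1572 cells) and cells with at least 2 Xist UMIs and none Y-linked (2578, 3405 and 2421). None of 7 tested genes passed, where 0.638% of 11279 genes did. At an unadjusted p under 0.05 there was 1 of the 7 by edgeR and 1 by DESeq2, which called none either. Plin2 came nearest, at 22.8, 26.6 and 27.5 CPM with Y-linked against 19.0, 21.9 and 18.2 with Xist transcripts (log2 0.37 ± 0.09, edgeR adjusted p = 0.0554), higher with Y-linked transcripts in each run. It passed without run 1 (adjusted p = 0.0208) and without run 2 (0.0266).

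Apoe was at 570, 959 and 653 CPM with Y-linked against 725, 813 and 791 with Xist transcripts (log2 -0.13 ± 0.07, edgeR adjusted p = 0.570), lower in runs 1 and 3 and higher in run 2. Without run 2 it passed (-0.31, adjusted p = 1.59e-06). Over all genes, 148 passed without run 1 and 37 without run 3, in place of 72.

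Whether the Apoe rise of DAM-gated cells differed with the sex-linked transcripts was asked with a wider gate of at least 2 DAM markers, chosen after the data had been seen, because the gate of 3 markers left 2 cells of a class in a run. Cells with Y-linked transcripts (34, 17 and 22) held 5844, 6542 and 6157 CPM of Apoe, and cells with Xist (50, 40 and 18) held 3104, 3567 and 4536, so the runs did not overlap. In the microglia outside the gate the values were 559, 857 and 594 against 692, 803 and 751 CPM. The rise was larger with Y-linked transcripts by 0.98 ± 0.11 on the log2 scale (interaction term, edgeR adjusted p = 4.27e-12; DESeq2 0.96, adjusted p = 0.00790), by 1.22, 0.78 and 0.78 within the runs, and Apoe was the only gene of 10298 to pass (0.00971%). Lpl differed by 0.77 ± 0.18 (edgeR adjusted p = 0.119) and Plin2 by 0.57 (adjusted p = 0.998).

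This difference in sums was not seen in the median cell. The single cell with the most Apoe held 22.4%, 31.0% and 30.6% of the Apoe UMIs of the Y-linked group and 17.6%, 19.1% and 49.2% of the Xist group. Without that cell the levels were 4788, 4852 and 4601 against 2635, 2933 and 2566 CPM, still higher with Y-linked transcripts in each run. The median level per cell was 570, 4301 and 867 CPM with Y-linked against 1800, 1437 and 1427 with Xist transcripts, so it was lower in runs 1 and 3. Without the run as a block the adjusted p was 1 in edgeR. With the gate of 3 markers the sums were 12880, 7881 and 4438 CPM (12, 2 and 9 cells) against 3815, 4736 and 4913 CPM (17, 15 and 2 cells), which reverses in run 3.

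**Figure D5:**
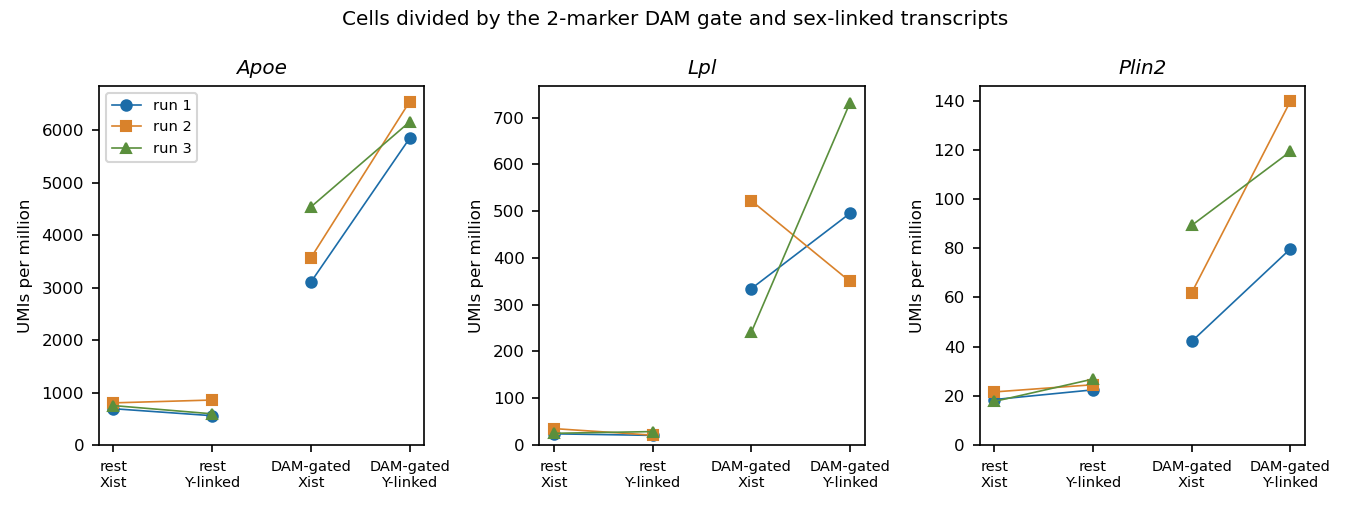
Levels (CPM) of Apoe, Lpl and Plin2 in cells with at least 2 DAM markers and in the other microglia (rest), divided by sex-linked transcripts; points are runs, joined within a run. For Apoe, the DAM-gated cells with Y-linked transcripts lie at 5844 to 6542 CPM and those with Xist at 3104 to 4536 CPM, while the other microglia overlap.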

How the data were processed

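The deposited files hold raw UMI counts per gene and barcode for 3 droplet runs, with counting software version 3.0.2 for run 1 and 3.1.0 for runs 2 and 3 per the file headers. Cell Ranger, Seurat 4.0 and mm10 are named in the submitters' processing notes; how barcodes were selected is not given in the sources used here. Run totals were 34140879, 24717907 and 24225612 UMIs over 7255, 6895 and 6226 barcodes. The lipid handling genes, marker gates, lists and tests were chosen with earlier results of these data known; 7 of 8 DAM markers were in the files.

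Sums of UMIs, one for each population of a run, were tested with edgeR 4.0.16 (R 4.3.3; quasi-likelihood test, TMM, filterByExpr, run as a block, Benjamini-Hochberg over all genes tested, threshold 0.05), with 9 populations of at least 10 cells per run in a single fit. Sums of a run share its library, so the run pairs them, and same-run deviations correlated at 0.146 to 0.323. The test was also run on counts simulated from the reference means with a fixed spread and no differences between runs. Such counts cannot check the block, and the outcome is not reported here. All 9 genes are named in each comparison, tested or counted; at most 3 genes per list and direction were named (some that qualify are not reported here), those that passed, moved by 0.5 or more on the log2 scale, reached 20 CPM and had the same direction in 3 runs; the genes most like Apoe are the 5 with the highest mean rho. Ratios within runs used a pseudocount of 1 CPM, and the limit for a count of 0 was 3 counts. Thinning drew 2000 UMIs per cell. No doublet caller was run; cells holding both sex-linked transcripts were left out in an alternative. Alternatives were DESeq2 1.42.0, RLE scaling, no block, no or other filters and gates, and each run left out. Positions are from GENCODE on GRCm38; promoter windows are from RefSeq on GRCm38.p6.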

Additional observations from a re-analysis of the deposited data

Results flagged for a closer look

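Among cells with at least 2 DAM markers, the rise of Apoe was larger where Y-linked UMIs were found than where Xist was, by 0.98 on the log2 scale, and this difference between the groups was itself tested by an interaction term (edgeR's quasi-likelihood test, adjusted p = 4.27e-12, in the same direction in 3 of 3 runs). The wider gate was chosen after the data had been seen, and the median cell did not follow the sums in runs 1 and 3. The p rests on a spread shared over genes and is smaller than 3 runs alone could give.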

How the results depend on the processing

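Of the fitted log2 differences, those of the genes called in a comparison and those of Apoe were followed through the alternatives. Of these 286 values, 245 kept their direction and their side of the threshold, 32 lost the call, 9 gained it and none changed sign; members that did not pass, other than Apoe, were not followed one by one. The number of lipid handling genes called moved as follows. Leaving out each run in turn gave 5 to 6 for DAM-gated cells (6 with all runs), 1 to 3 for chemokine-gated (3), 3 to 4 for border macrophage-gated (4), 0 to 1 for interferon-gated (0), 2 for cycling-gated (2), 3 to 4 for MHC class II-gated (3), 1 to 4 for cells with at least 4 Apoe UMIs (3), 0 to 2 by sex-linked transcripts (0) and 1 to 2 for the interaction (1). With no filter on low counts it was 1 for interferon-gated, 4 for cycling-gated, 5 for MHC class II-gated (Ch25h and Fabp5 were added), 1 by sex-linked transcripts and 2 for the interaction. Fits of only the contrast's populations gave 1 for interferon-gated and 4 for cycling-gated. Gates and sums on thinned cells, where 1589 genes were tested, gave 1 each for border macrophage-gated, interferon-gated and cycling-gated. The stricter cell filter gave 1 by sex-linked transcripts. DESeq2 called 1 in cells with at least 4 Apoe UMIs, Abca1, and gave no adjusted p for 3 others, Lpl and Plin2 among them. Without the replicate block, which pairs the sums of a run, it was 4 for DAM-gated (Soat1 and Abca1 lost, adjusted p = 0.0742 and 0.0572), 1 for chemokine-gated (Apoe 0.0508, Soat1 0.0671), 3 for border macrophage-gated (Abca1 0.202), 0 for cells with at least 4 Apoe UMIs and 0 for the interaction; no other call changed.

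Counts over all genes without the block were 248 for 625 (DAM-gated), 164 for 426 (chemokine-gated), 758 for 1138 (border macrophage-gated), 696 for 1087 (cycling-gated), 4 for 711 (Apoe) and 5 for 72 (sex-linked). With no filter they were 190 for 118 (interferon-gated), 1739 for 1087, 139 for 72 and 4 for 1 (interaction). With only the contrast's populations they were 791 for 426, 253 for 118 and 2001 for 1087, and on thinned cells 131, 691 and 338 for chemokine-gated, border macrophage-gated and cycling-gated. DESeq2 gave 314 for 711 and 21 for 72. Without cells holding an astrocyte marker they were 357 for 711 and 43 for 72, and with at least 2 Y-linked UMIs 46 for 72. DESeq2 divided its calls into 426 higher and 196 lower in DAM-gated cells (357 and 268 in edgeR), 316 and 103 in chemokine-gated cells (264 and 162) and 248 and 66 in cells with at least 4 Apoe UMIs (490 and 221).

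The Apoe level of interferon-gated cells moved from 1389 to 1481 CPM without cells holding both sex-linked transcripts and to 1257 as a mean over cells. The correlation of Lpl with Apoe moved from 0.050 to 0.084 without thinning, and that of Soat1 reversed to -0.0019 without cells holding an astrocyte marker. The cause was not tested. Not run, with under 10 cells in a run: DAM-gated cells under the stricter filter, without astrocyte-marker cells, on thinned cells and with one marker more; MHC class II-gated cells without border-marker cells or astrocyte-marker cells; cycling-gated cells without astrocyte-marker cells; the interaction without astrocyte-marker cells and with at least 2 Y-linked UMIs. Few cells, 10 to 35 per run in DAM-gated, MHC class II-gated and cycling-gated populations, limit each of these results.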
